A study of Mus musculus with 12 samples.

Results

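The glucocorticoid receptor and a group of genes that it is known to induce were followed in kidney RNA of mice treated with cannabidiol (CBD). The group held 10 of the 57180 genes in the count files, chosen by symbol: Nr3c1, Hsd11b1, Fkbp5, Ddit4, Tsc22d3, Zbtb16, Klf9, Dusp1, Errfi1 and Gjb2. The study named Ddit4, Gjb2 and Fkbp5 among its altered genes of glucocorticoid action from these same kidneys, so their levels are not independent evidence of a direction. Male C57BL/6J mice, young adults at the start, were injected intraperitoneally once a day for 28 days with saline and Tween 80 alone (Control), or with the same vehicle carrying CBD at 10 mg/kg (10CBD) or 20 mg/kg (20CBD) of body weight. Each group had 4 mice and each mouse gave 1 poly(A) RNA library of whole kidney. All mice were killed under isoflurane anesthesia by cutting of the spinal cord before the kidneys were taken. No other allele or agent is given in the labels or methods, and neither corticosterone nor the hour of collection is given there.

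Glucocorticoids such as corticosterone, the main form in mice, enter cells and bind the receptor encoded by Nr3c1, which waits in the cytoplasm in a complex with Hsp90 and its co-chaperones. The bound receptor moves to the nucleus and binds short paired sequences in DNA, where it raises transcription of some genes, while it lowers others through inflammatory factors. In the kidney the hormone acts on salt and acid handling, glucose production and inflammation, and its blood level follows a daily rhythm.

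The libraries held 15417867 to 23532088 counts on genes, with a median of 18193787.5. The share of these counts on mitochondrial genes ran from 3.53% to 23.4%, and it was under 10% in 4 libraries: Control mouse 2, 10CBD mice 1 and 3, and 20CBD mouse 3. All 10 genes passed the filter on low counts, with at least 110 counts in every library. Levels of 1 gene across mice are given as CPM, its counts scaled to a common library total, and levels of different genes as TPM, which also divide by transcript length. A whole-kidney level cannot tell fewer cells of a type from less RNA in each cell.

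The defining letters of a glucocorticoid response element were searched for in 8 of the 10 genes, because binding of the receptor to such letters is the textbook route of induction. The search used GNACANNNTGTNC, which reads the same on both strands and which the mineralocorticoid, androgen and progesterone receptors can also bind. It covered the mouse genome GRCm39 and GENCODE gene models, and Nr3c1 and Zbtb16 were not searched here. Within 5000 bases of the canonical transcript start, 2 of the 8 genes held the letters, Fkbp5 and Dusp1, beside 15.5% of 21757 protein-coding genes. Within 10000 bases they were Fkbp5, Dusp1 and Klf9, beside 28.5% of those genes. Over whole genes, Fkbp5 held 8 matches in 119.464 kb, or 6.7 per 100 kb, against 1.78 per 100 kb over all protein-coding genes. At least as many matches were found in 0.713% of the 3649 protein-coding genes between 0.5 and 2 times its length. Counted in the same way, the share was 9.64% for Dusp1 (3 matches), 28.4% for Errfi1 (1 match) and 52.1% for Hsd11b1 (1 match). The 7 Fkbp5 matches that lie in introns are shown because Fkbp5 carried the most matches of the genes searched. Also shown is 1 match each in introns of Hsd11b1, Dusp1 and Errfi1. They are written 5′ to 3′ on the strand of the gene, with the fixed letters of the pattern in capitals:
Fkbp5, chr17:28737146-28737174, minus strand: ctcgcccgGgACAttgTGTtCcagcccca
Fkbp5, chr17:28732869-28732897, minus strand: tctctgggGgACActgTGTtCtgggcagc
Fkbp5, chr17:28703919-28703947, minus strand: ggggctcgGgACAgggTGTaCagcgcttg
Fkbp5, chr17:28661386-28661414, minus strand: ttgtttgaGaACAgctTGTtCtaggcttt
Fkbp5, chr17:28658514-28658542, minus strand: acagctttGtACAactTGTgCggtgagcc
Fkbp5, chr17:28639288-28639316, minus strand: cacattcaGaACAgggTGTtCtgtgctct
Fkbp5, chr17:28625779-28625807, minus strand: agggttatGtACActgTGTgCtatcaatg
Hsd11b1, chr1:192909953-192909981, minus strand: ttctaatcGcACAttcTGTcCcatttatg
Dusp1, chr17:26750953-26750981, minus strand: tatgtcaaGaACAagcTGTgCtcacactt
Errfi1, chr4:150950270-150950298, plus strand: tttaatttGaACAttaTGTcCcttggatt
The third Fkbp5 sequence lies 1219 bases after the canonical start, and the fourth and sixth lie 43752 and 65850 bases after it. Ddit4, Tsc22d3, Klf9 and Gjb2 held no match within the gene, which says only that these letters are not there. A match is a run of letters and not a measured binding site.

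In Control kidneys Errfi1 had the highest level of the 10 genes, 170.5 ± 25.2 TPM (SD, n = 4), above every value of the others. Klf9 (71.5 ± 5.52 TPM, n = 4) and Hsd11b1 (63.6 ± 21.1 TPM, n = 4) followed and overlapped each other. Dusp1, Fkbp5, Tsc22d3, Gjb2 and Nr3c1 had mean levels between 34.5 and 30.5 TPM, and each overlapped the next in order. Ddit4 lay below all of these at 13.9 ± 3.49 TPM (n = 4), and Zbtb16 was lowest at 2.60 ± 1.03 TPM (n = 4).

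At 20 mg/kg, Ddit4 rose 2.13-fold over Control, and it was the only gene of the group past an adjusted p of 0.1. Fkbp5, Tsc22d3, Gjb2, Dusp1 and Klf9 had estimates between 1.25-fold and 1.78-fold of Control with unadjusted p-values under 0.05 and adjusted p-values from 0.168 to 0.541. The receptor gene Nr3c1 had an estimate of 0.79-fold, also with an unadjusted p under 0.05. In all, edgeR called 1 of 10 genes, beside 0.303% of 17163 genes tested, and 7 of 10 had an unadjusted p under 0.05, beside 8.45%. DESeq2 called Fkbp5, Tsc22d3 and Gjb2 as well as Ddit4, and it called 182 genes of all tested, against 52 with edgeR. Leaving out the 4 libraries of low mitochondrial share, edgeR called Ddit4, Fkbp5 and Gjb2, and 107 genes of all tested. The median log2 fold change of the group was 0.50 over all 12 libraries, beside 0.015 over all genes tested. Without the 4 libraries of low mitochondrial share it was 0.34, beside 0.0050.

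**Figure D1:**
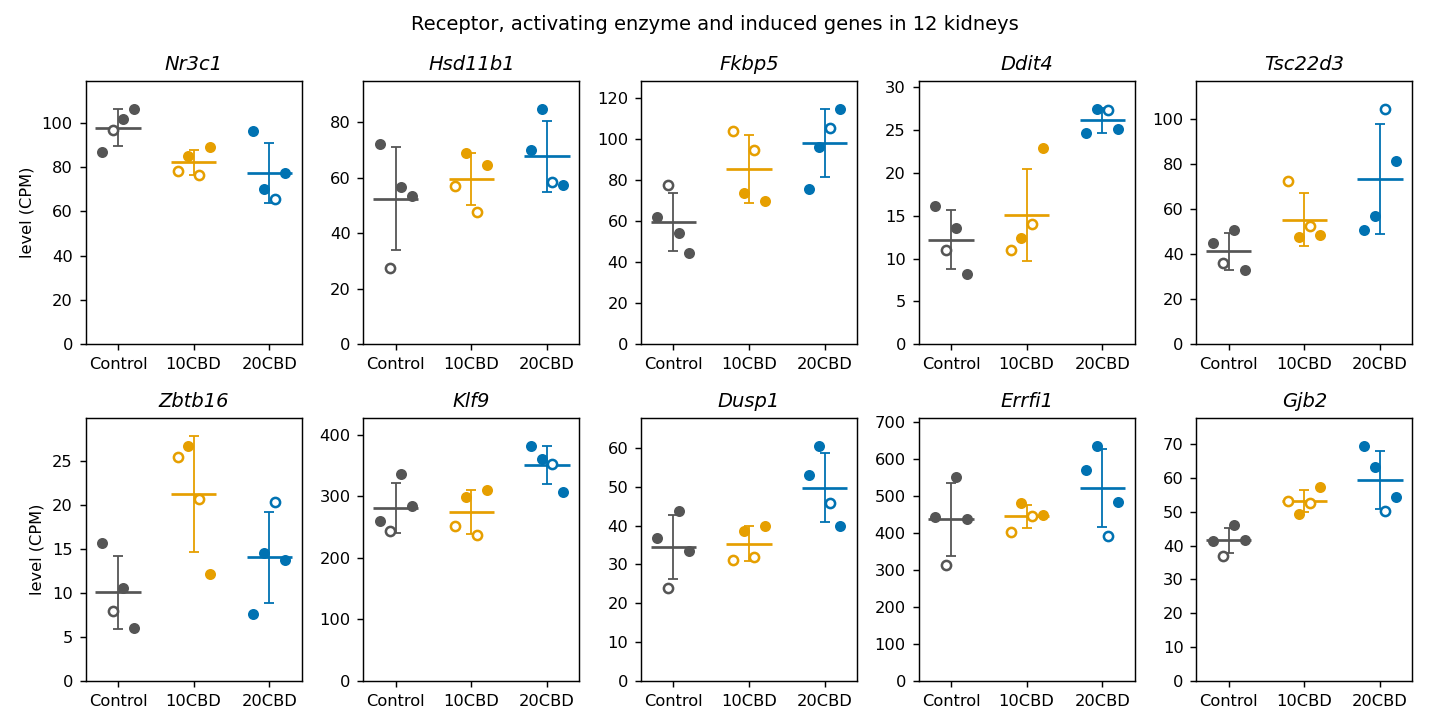
Level of each of the 10 genes in CPM (scaled counts, vertical axis from 0) in the 4 Control, 4 10CBD and 4 20CBD kidneys, in replicate order from left to right. Points are mice, open where the mitochondrial share was under 10%, and bars are the mean and SD. Ddit4, Tsc22d3 and Gjb2 are higher in every 20CBD mouse than in every Control mouse, and Gjb2 is also higher in every 10CBD mouse.

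Nr3c1 (ENSMUSG00000024431, chromosome 18), the receptor gene, had 86.5, 96.8, 101 and 106 CPM in the 4 Control mice. The 10CBD mice had 78.3, 84.8, 76.6 and 88.8 CPM, and the 20CBD mice had 96.0, 70.2, 65.6 and 77.2 CPM. In each treated group 3 of 4 mice lay below all Control mice, and 10CBD mouse 4 and 20CBD mouse 1 lay inside the Control range. The log2 fold change was −0.25 (95% interval −0.52 to 0.021) at 10 mg/kg and −0.34 (−0.61 to −0.066) at 20 mg/kg, with adjusted p-values of 0.870 and 0.481. An exact permutation test of the 4 against 4 mice gave p = 0.0571 at each dose, two-sided, where 0.0286 is the smallest it can give.

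Hsd11b1 (ENSMUSG00000016194, chr1:192903918-192946489, minus strand) encodes the enzyme that regenerates active glucocorticoid from its inactive keto form. Control mice had 72.1, 27.3, 56.8 and 53.5 CPM, 10CBD mice 57.0, 68.95, 47.8 and 64.6 CPM, and 20CBD mice 70.1, 84.7, 58.6 and 57.3 CPM. The groups overlapped, and the lowest value by far was Control mouse 2, which had a low mitochondrial share. Its log2 fold change was 0.37 (95% interval −0.12 to 0.85, adjusted p = 0.728) at 20 mg/kg, and it ran from 0.15 without Control mouse 2 to 0.57 without Control mouse 1. The gene overlaps Lamb3 on the other strand, and the strand setting of the counting is not given in the sources used here.

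Fkbp5 (ENSMUSG00000024222, chr17:28618058-28737521, minus strand), which carries the matches shown above, encodes a co-chaperone of Hsp90 that lowers the affinity of the receptor for its hormone. Control mice had 61.9, 77.7, 54.2 and 44.3 CPM. The 10CBD mice had 104, 73.6, 94.8 and 69.7 CPM, and the 20CBD mice had 75.7, 96.1, 105 and 115 CPM. Of the 20CBD mice 3 lay above every Control mouse, and of the 10CBD mice 2, while the remaining treated mice lay inside the Control range. For Fkbp5 the log2 fold change was 0.52 (95% interval 0.13 to 0.92, adjusted p = 0.812) at 10 mg/kg and 0.72 (0.32 to 1.11, adjusted p = 0.239) at 20 mg/kg. The highest Control value was again mouse 2, and without it the value at 20 mg/kg was 0.87. Among the 8 libraries with a mitochondrial share of at least 10%, it was 0.84 with an adjusted p of 0.0222, which passed the threshold.

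Ddit4 (ENSMUSG00000020108, chr10:59785491-59788492, minus strand), also called REDD1, restrains the growth kinase mTORC1. Control mice had 16.1, 10.97, 13.5 and 8.16 CPM and 20CBD mice had 24.7, 27.4, 27.3 and 25.1 CPM. Every 20CBD mouse lay above every Control and every 10CBD mouse, and the 20CBD values differed little among themselves, with an SD of 1.45 CPM. The 10CBD mice had 10.96, 12.4, 14.0 and 22.95 CPM, and only mouse 4 stood above the Control range. The log2 fold change at 20 mg/kg was 1.09 (standard error 0.23, adjusted p = 0.0849). At 10 mg/kg it was 0.30, and 0.024 without mouse 4. The call was lost when any 1 Control mouse, any 1 20CBD mouse or 10CBD mouse 3 was left out, with adjusted p-values up to 0.273 and log2 fold changes from 0.94 to 1.26.

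Tsc22d3 (ENSMUSG00000031431, chrX:139440091-139501408, minus strand), known as GILZ, is a leucine zipper protein that damps inflammatory signalling. Control mice had 45.0, 35.9, 50.7 and 33.1 CPM and 20CBD mice had 50.8, 57.1, 104 and 81.4 CPM. The groups did not overlap, but 20CBD mouse 1 exceeded the highest Control mouse only narrowly, and mouse 3, with a low mitochondrial share, was highest. The 10CBD mice had 72.6, 47.6, 52.4 and 48.3 CPM, with the top value again in a library of low mitochondrial share. At 20 mg/kg the log2 fold change was 0.83 (95% interval 0.37 to 1.30, adjusted p = 0.270) and 0.61 without 20CBD mouse 3.

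Zbtb16 (ENSMUSG00000066687, chr9:48563141-48748664, minus strand) and Klf9 (ENSMUSG00000033863, chr19:23118187-23148497, plus strand) encode zinc finger transcription factors. Zbtb16 had 15.7, 7.97, 10.5 and 5.98 CPM in Control mice. It had 25.4, 26.7, 20.6 and 12.2 CPM in 10CBD mice and 7.61, 14.5, 20.3 and 13.7 CPM in 20CBD mice. Of the 10CBD mice 3 lay above every Control mouse, while 3 of the 20CBD mice lay inside the Control range. As a log2 fold change, Zbtb16 differed by 1.07 (95% interval 0.39 to 1.75, adjusted p = 0.795) at 10 mg/kg and 0.48 (−0.20 to 1.16, adjusted p = 0.753) at 20 mg/kg. The value at 20 mg/kg ran from 0.25 without 20CBD mouse 3 to 0.79 without Control mouse 1, and it was 0.15 among the 8 libraries with a mitochondrial share of at least 10%. The difference between the doses was −0.60 (−1.27 to 0.079) with an adjusted p of 0.809. Klf9 had 259, 243, 336 and 285 CPM in Control mice and 251, 299, 237 and 309.5 CPM in 10CBD mice. The 20CBD mice had 382, 360.2, 353 and 307 CPM, with 3 of 4 above both other groups. Its log2 fold change was 0.32 (0.026 to 0.61, adjusted p = 0.541) at 20 mg/kg and −0.035 (−0.33 to 0.26) at 10 mg/kg.

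Dusp1 (ENSMUSG00000024190, chr17:26724564-26781102, minus strand), a phosphatase that inactivates MAP kinases, had 36.7, 23.9, 43.7 and 33.4 CPM in Control mice. The 10CBD mice had 31.1, 38.5, 32.0 and 39.9 CPM and the 20CBD mice had 53.1, 60.5, 45.7 and 39.9 CPM. Every 20CBD mouse lay above every 10CBD mouse, by the smallest of margins for 20CBD mouse 4, and 3 of 4 lay above every Control mouse. On the log2 scale Dusp1 differed by 0.53 (95% interval 0.16 to 0.91, adjusted p = 0.404) against Control and 0.49 (0.12 to 0.87, adjusted p = 0.758) against 10CBD. The annotated gene includes a long transcript that overlaps Ergic1 on the other strand, so its counts share the limit on strand given for Hsd11b1. Errfi1 (ENSMUSG00000028967, chr4:150938376-150955402, plus strand) encodes a feedback inhibitor of the EGF receptor. It had 443, 312, 552 and 437 CPM in Control mice, 403, 480.1, 446 and 448 CPM in 10CBD mice and 569.8, 635, 392 and 484 CPM in 20CBD mice. The groups overlapped, and the log2 fold change was 0.25 (−0.12 to 0.63, adjusted p = 0.768) at 20 mg/kg and 0.027 (−0.35 to 0.40) at 10 mg/kg. The value of Errfi1 at 20 mg/kg ran from 0.12 without Control mouse 2 to 0.39 without Control mouse 3.

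Gjb2 (ENSMUSG00000046352, chr14:57335919-57342240, minus strand) encodes connexin 26, a gap junction protein. Control mice had 41.5, 37.1, 46.2 and 41.7 CPM, 10CBD mice 53.1, 49.3, 52.7 and 57.3 CPM, and 20CBD mice 69.5, 63.3, 50.3 and 54.5 CPM. It was the only gene of the 10 in which the lowest of the 8 treated mice exceeded the highest of the 4 Control mice. The log2 fold change was 0.35 (95% interval 0.093 to 0.61, adjusted p = 0.812) at 10 mg/kg and 0.51 (0.25 to 0.77, adjusted p = 0.168) at 20 mg/kg. For the mean of both doses it was 0.43 (0.20 to 0.66, adjusted p = 0.253).

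**Figure D2:**
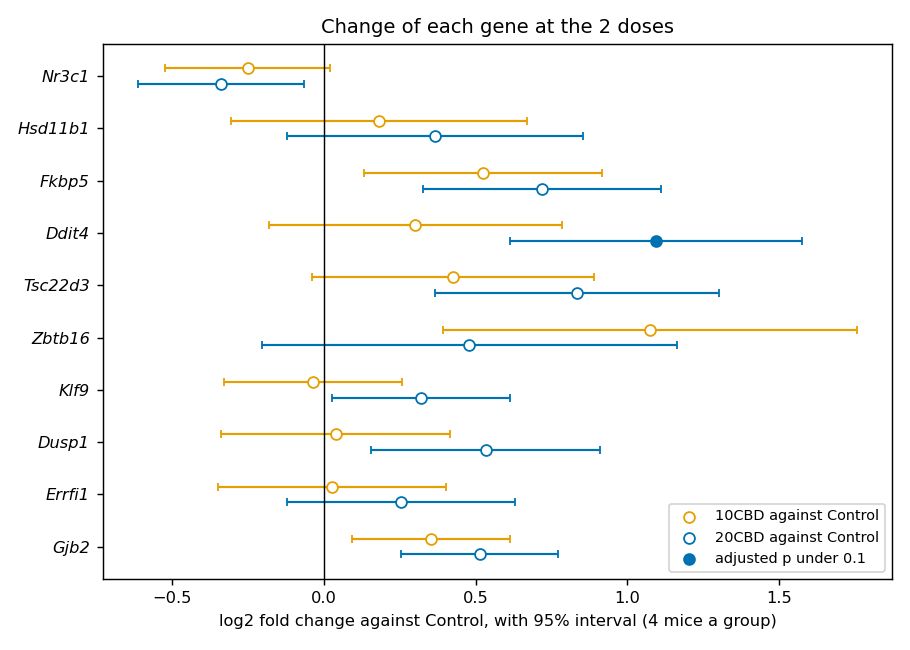
Log2 fold change against Control (horizontal axis) of each gene (vertical axis) for 10CBD in orange and 20CBD in blue, 4 mice a group. Bars are 95% intervals from edgeR and the filled point marks the single call, Ddit4 at 20CBD. The 20CBD estimate is above 0 in 9 of 10 genes, and Zbtb16 is the only gene above 0 at both doses whose 10CBD estimate is the larger.

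At 10 mg/kg edgeR called none of the 10 genes, beside 0.0291% of all genes tested, and DESeq2 and limma-voom also called none. Fkbp5, Zbtb16 and Gjb2 had an unadjusted p under 0.05, beside 5.67% of all genes. The group median log2 fold change was 0.24, and 0.14 among libraries with a mitochondrial share of at least 10%. Between the doses edgeR called none of the 10, nor any gene of the whole table (0%), and DESeq2 and limma-voom called none of the 10. Ddit4, Dusp1 and Klf9 were higher at 20 mg/kg with an unadjusted p under 0.05, beside 6.31% of all genes. For Ddit4 the log2 difference between doses was 0.79 (95% interval 0.31 to 1.27, adjusted p = 0.758). For Fkbp5 and Gjb2 the differences between doses were 0.19 (−0.20 to 0.58) and 0.16 (−0.098 to 0.42), intervals that include both no difference and differences of up to 1.498-fold and 1.34-fold.

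For the mean of both doses edgeR and limma-voom called none of the 10 genes, beside 0.14% of all genes with edgeR. DESeq2 called Ddit4, Fkbp5 and Gjb2, and it called 136 of the 17163 genes tested. With edgeR, 6 of 10 had an unadjusted p under 0.05, beside 7.04%: Fkbp5, Ddit4, Tsc22d3, Zbtb16 and Gjb2 with higher estimates and Nr3c1 with a lower estimate. Genes with no overlap of mice were counted in the same way. At 20 mg/kg, 3 of 10 genes had every treated mouse above every Control mouse, beside 2.67% of all genes. At 10 mg/kg there was 1 such gene, beside 1.55%, between the doses there were 2, beside 1.7%, and for both doses together there was 1, beside 0.42%. The comparisons share their Control mice and are not independent of each other.

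The mice did not rank alike in all 10 genes. With each group mean removed, log2 levels over the 12 mice moved together for Dusp1 and Errfi1 (Pearson's r = 0.86), Dusp1 and Hsd11b1 (r = 0.86), Klf9 and Dusp1 (r = 0.82), and Gjb2 and Errfi1 (r = 0.78). Fkbp5 moved against these, with r from −0.78 to −0.59, and with Tsc22d3 (r = 0.54) and Zbtb16 (r = 0.53). The lowest value of the set was between Nr3c1 and Zbtb16 (r = −0.82), followed by Fkbp5 with Klf9 (r = −0.78), Fkbp5 with Dusp1 (r = −0.69) and Nr3c1 with Fkbp5 (r = −0.66). Ddit4 had no r beyond 0.41 in size with any other gene of the group. Among the 8 libraries with a mitochondrial share of at least 10%, part of this pattern was smaller or turned. There r was 0.10 for Fkbp5 with Hsd11b1, −0.20 with Errfi1, −0.24 with Dusp1, −0.59 with Klf9 and −0.62 with Gjb2. Hsd11b1 had r = 0.04 with Klf9 and 0.23 with Gjb2, while Dusp1 with Errfi1 had 0.93 and Fkbp5 with Tsc22d3 had 0.86. These values are descriptions over 12 libraries that differ in depth and mitochondrial share, and no test was made.

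The same split followed the mitochondrial share of the libraries. Group means removed, r with that share was 0.86 for Errfi1, 0.80 for Dusp1, 0.72 for Gjb2, 0.70 for Klf9 and 0.68 for Hsd11b1. It was −0.72 for Fkbp5 and −0.59 for Tsc22d3, and lay between −0.33 and 0.52 for Zbtb16, Ddit4 and Nr3c1. Spearman's rho was 0.85 for Dusp1 and −0.71 for Fkbp5. Without the 2 libraries whose share lay farthest from the median after group means were removed, Control mouse 2 and 20CBD mouse 3, r was 0.84 for Dusp1, −0.70 for Fkbp5 and 0.48 for Gjb2. With the share in the model as a covariate, edgeR called 6 of the 10 genes at 20 mg/kg, which were Ddit4, Fkbp5, Tsc22d3, Gjb2, Dusp1 and, lower, Nr3c1. That fit called 1386 genes of all tested, against 52 without the covariate. The median share was 17.3% in 20CBD, 13.2% in Control and 9.91% in 10CBD libraries, and its part in the levels of the group was not tested further.

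**Figure D3:**
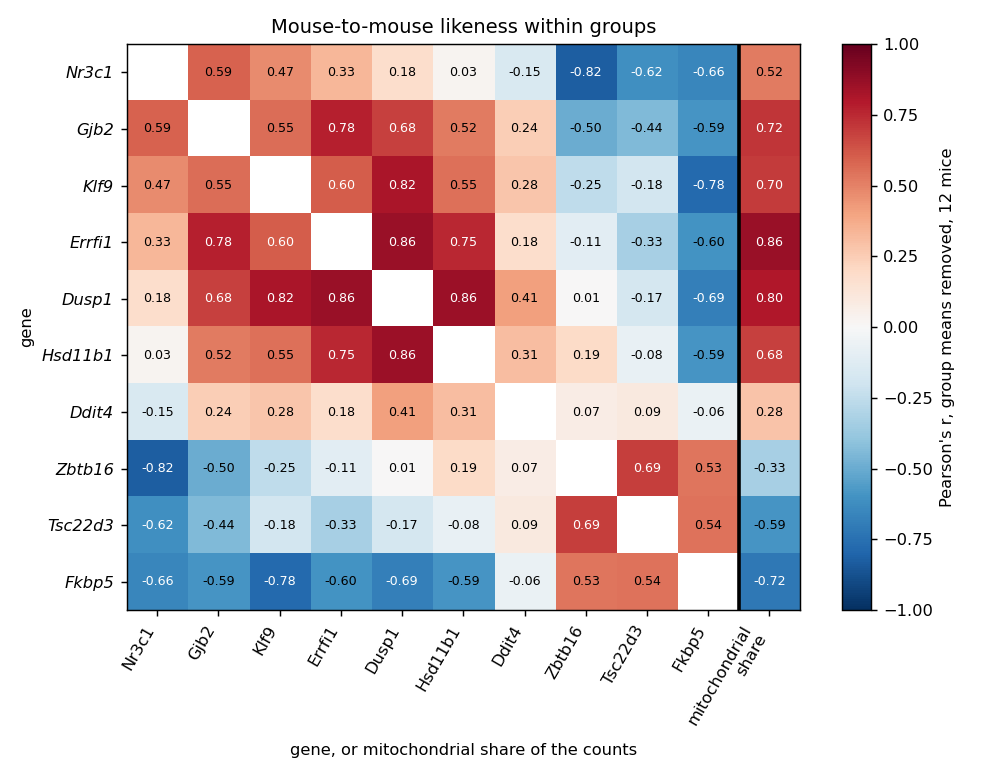
Pearson's r (color and printed value) of log2 CPM between each pair of the 10 genes over 12 mice with group means removed, and in the last column between each gene and the mitochondrial share of the library. Dusp1, Errfi1, Klf9, Gjb2 and Hsd11b1 form a block of positive values from 0.52 to 0.86, and Fkbp5 has negative values against each of them. Among the 8 libraries with a mitochondrial share of at least 10%, which are not drawn, Fkbp5 with Hsd11b1 is 0.10 and Hsd11b1 with Klf9 is 0.04.

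The genes most like each member over the 12 mice, group means removed, were taken as the 3 with the highest r among 17162 others, leaving out genes named only by an identifier, a Gm number or a Rik clone. For Nr3c1 they were Rock1 (r = 0.97), Zfp277 (0.93) and Slc35b4 (0.92), and for Hsd11b1 Nt5dc2 (0.95), Clca3a1 (0.94) and Phf11d (0.93). For Fkbp5 they were Snord17, Idh2 and Thap7, each at 0.96. For Ddit4 they were Il4 (0.92), Cfap43 (0.89) and Cdc123 (0.89), for Tsc22d3 Atp5me (0.94), Uqcc5 (0.93) and Pes1 (0.92), and for Zbtb16 Stac3 (0.94), Nop9 (0.87) and mt-Tr (0.87). Klf9 was most like Cfap68 (0.95), Zfp37 (0.94) and Efr3b (0.89), and Dusp1 most like Plpp5 (0.95), Pin4-ps (0.94) and Man2c1os (0.94). Errfi1 was most like Mex3b (0.98), Pipox (0.97) and Mtbp (0.96), and Gjb2 most like Brd2, Cacul1 and Etaa1, each at 0.90. No gene of the group was among the 3 most like another, the nearest being Errfi1 at rank 29 for Dusp1. With group means kept, r for the 3 genes of Gjb2 was between −0.067 and 0.061. The highest of 17162 values over 12 libraries are high in part through the choice itself, and no test was made.

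Beyond the 10 genes, 30 other genes that glucocorticoids are known to induce were listed, of which 29 could be tested. At 20 mg/kg edgeR called 4 of them, all higher, beside 0.303% of all genes tested. At an unadjusted p under 0.05, 19 were higher and 2 lower, beside 8.45% of all genes in either direction. Their median log2 fold change was 0.46, and 12 of 29 had every 20CBD mouse above every Control mouse, beside 2.67%. In 1 of 29, G6pc1, every 20CBD mouse lay below every Control mouse, beside 451 of 17163 genes. G6pc1 had 601 to 749 CPM in Control and 421 to 524 CPM in 20CBD mice. DESeq2 called 9 higher and 1 lower, and 182 genes of all tested. The list was set with earlier results of these data known and includes Pck1, Foxo3 and Cyp1b1, which the study itself named from these kidneys. Its counts are therefore not independent evidence of a direction. At 10 mg/kg edgeR called none, DESeq2 called 1, 3 were higher and 1 lower at an unadjusted p under 0.05, beside 5.67% of all genes, and the median was 0.088.

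The 4 called genes were Hif3a, Arrdc2, Map3k6 and Acer2. Hif3a, a HIF family subunit that limits hypoxia signalling, rose from 0.668 to 2.01 CPM in Control mice to 2.64 to 5.25 CPM in 20CBD mice (log2 fold change 1.81, adjusted p = 0.0567). Map3k6, a stress kinase, rose from 3.01 to 6.47 CPM to 9.02 to 13.5 CPM (1.13, adjusted p = 0.0567). Arrdc2, an arrestin domain protein, rose from 8.31 to 9.68 CPM to 14.5 to 19.7 CPM (0.97, adjusted p = 0.0258). Acer2, a Golgi ceramidase, rose from 9.83 to 10.98 CPM to 16.3 to 22.9 CPM (0.81, adjusted p = 0.0897). None of the 4 overlapped Control at 20 mg/kg. When 1 library at a time was left out, the call was lost in 5 of 12 fits for Hif3a, 4 for Map3k6, 1 for Arrdc2 and 10 for Acer2. Map3k6 holds the letters of the response element 142 bases before its start, between genes, and is shown for that reason:
Map3k6, chr4:132967940-132967968, plus strand: gaatagggGcACAggcTGTtCcggaagtg
Of the 4 genes, Map3k6 was the only one with a match within 5000 bases of the start, and Arrdc2 had 3 matches within 10000 bases.

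**Figure D4:**
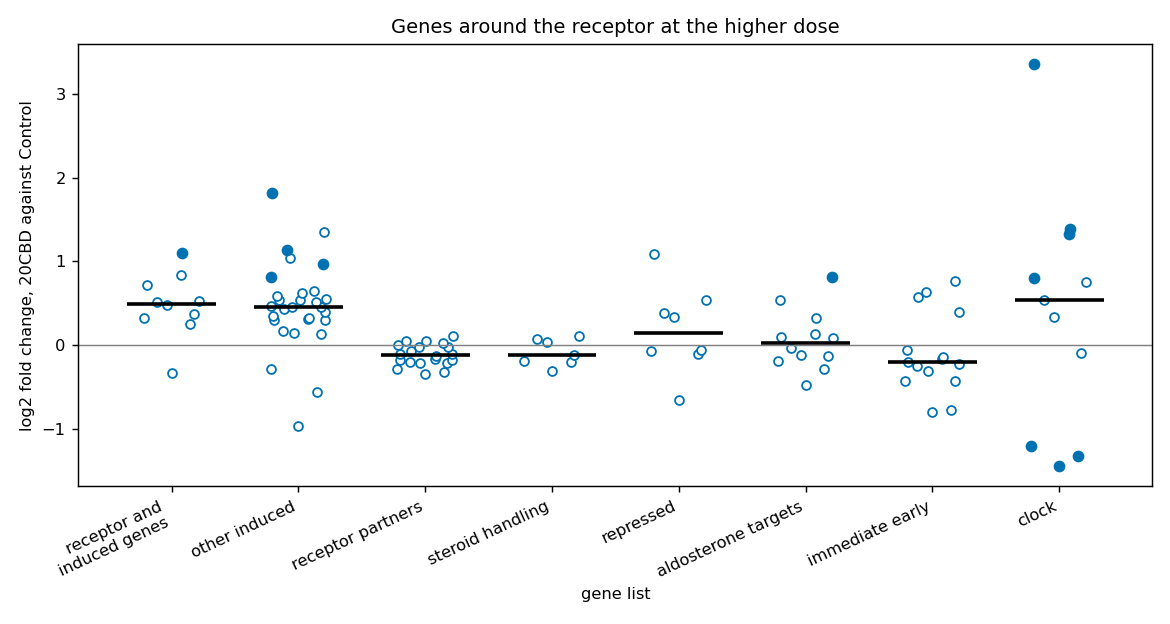
Log2 fold change of 20CBD against Control (vertical axis) for each tested gene of 8 lists (horizontal axis), with called genes filled and the median of each list as a black bar. The receptor group and the other induced genes have medians of 0.50 and 0.46, the receptor partners −0.12, and the clock list holds the widest spread.

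Of 20 receptor partners, which were chaperones, coactivators, corepressors and the mineralocorticoid receptor gene, edgeR, DESeq2 and limma-voom called none at either dose. With edgeR, 1 at 10 mg/kg and 2 at 20 mg/kg had an unadjusted p under 0.05, all lower. The shares over all genes were 5.67% and 8.45%, so these counts were near the background. The median log2 fold change at 20 mg/kg was −0.12, and 16 of 20 estimates lay below 0, beside 8146 of 17163 genes. In 2 of 20, Dnaja1 and Stip1, every 20CBD mouse lay below every Control mouse, beside 451 of 17163 genes. The smallest p-values belonged to the chaperone Dnaja1 (−0.32, adjusted p = 0.466), the corepressor Nrip1 (−0.34, adjusted p = 0.530) and the co-chaperone Stip1 (−0.21, adjusted p = 0.625). Of 8 genes that handle steroids, 7 were tested, and the 3 tools called none at either dose. At an unadjusted p under 0.05 there were 1 lower at 10 mg/kg and none at 20 mg/kg, beside 5.67% and 8.45% of all genes. The efflux pump genes Abcb1a and Abcb1b had values of −0.31 and −0.20, and the reductase gene Srd5a1 −0.19, at 20 mg/kg, with adjusted p-values from 0.701 to 0.850.

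Of 12 genes that glucocorticoids are known to repress, mostly cytokines and adhesion molecules, 8 were tested, and no tool called any at either dose. At 20 mg/kg 2 had an unadjusted p under 0.05, both higher, beside 8.45% of all genes. They were the adhesion molecule Vcam1 (0.54, adjusted p = 0.337) and the chemokine Cxcl1 (1.09, adjusted p = 0.427). Cxcl1 rested on 4 to 17 counts per library, and the growth factor Csf1 had a value of 0.39 (adjusted p = 0.597). At 10 mg/kg 1 was lower at an unadjusted p under 0.05, beside 5.67% of all genes. Of 12 aldosterone targets, which a related receptor induces in the distal nephron, edgeR, DESeq2 and limma-voom called none at 10 mg/kg. None reached an unadjusted p under 0.05 there with edgeR, beside 5.67% of all genes. At 20 mg/kg 2 were higher and 1 lower at that level, beside 8.45%, and edgeR called 1, beside 0.303%. The gene called was Usp2, a deubiquitinase that also follows the clock, with 80.2 to 107 CPM in Control and 124 to 227 CPM in 20CBD mice (0.81, adjusted p = 0.0771). That call was lost in 9 of 12 fits that left out 1 library.

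Dusp1 is also a gene of the early response to stimulation, and 16 such genes were set beside it. Of the 15 tested, no tool called any at either dose, and edgeR gave an unadjusted p under 0.05 to 5 lower at 10 mg/kg, beside 5.67% of all genes, and to 1 higher and 1 lower at 20 mg/kg, beside 8.45%. The count at 20 mg/kg was near the background. The median was −0.38 at 10 mg/kg and −0.20 at 20 mg/kg. At 20 mg/kg Klf4 had a value of 0.77 (adjusted p = 0.483), Junb 0.57 (adjusted p = 0.590) and Ccn1 −0.78 (adjusted p = 0.391).

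Of 11 clock genes in the same kidneys, 7 were called at 20 mg/kg, 4 higher and 3 lower, beside 0.303% of all genes. At 10 mg/kg 3 were called, beside 0.0291%. The study named Dbp, Per3, Npas2, Nr1d1, Nr1d2, Per2 and Bmal1 among altered genes of these same kidneys. The counts of clock genes are therefore not independent evidence. Dbp, the clock output gene, rose from 1.43 to 2.92 CPM in Control to 12.9 to 19.6 CPM in 10CBD and 22.1 to 26.9 CPM in 20CBD mice, a log2 fold change of 3.35 at the higher dose. Per3 (1.39), Nr1d1 (1.33) and Nr1d2 (0.80) were the other genes called higher at 20 mg/kg, and Npas2 (−1.44), Cry1 (−1.32) and Bmal1 (−1.21) were called lower. When 1 library at a time was left out, the call at 20 mg/kg was lost in 9 of 12 fits for Cry1, 6 for Nr1d1, 3 for Nr1d2 and 1 for Bmal1, and in none for Dbp, Per3 and Npas2. Per1, which glucocorticoids induce and which stands in the clock, aldosterone and induced lists, had a value of 0.54 (adjusted p = 0.342). Within groups, r between Dbp and the 10 genes lay between −0.40 for Hsd11b1 and 0.22 for Nr3c1 over 12 mice. The part of the clock genes in the levels of the glucocorticoid group was not tested.

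Markers of other tissues were counted in the same libraries. Adrenal cortex markers, which would show adjoining adrenal tissue, summed to 5.36 to 8.82 CPM over 9 genes, with 2 or 3 of the 9 at 0 in every library of a group. Star, with group means of 4.11 to 4.82 CPM, and Akr1b7, with 1.67 to 2.15 CPM, made up most of it. Each of the other adrenal markers had group means of at most 0.28 CPM. Adipocyte markers were lower in treated kidneys, with a sum over 7 genes of 98.0 to 281 CPM in Control, 68.3 to 143 CPM in 10CBD and 68.5 to 117 CPM in 20CBD, none at 0 in a group. Most of that sum was Fabp4, with a mean of 149 CPM in Control, 88.9 CPM in 10CBD and 89.2 CPM in 20CBD. Of the 6 adipocyte markers tested none was called by edgeR or limma-voom at 20 mg/kg. DESeq2 called 2 lower, and 182 genes of all tested. All 6 were lower with edgeR at an unadjusted p under 0.05, beside 8.45% of all genes in either direction. Their median log2 fold change at 20 mg/kg was −3.09. Within groups, r between the log2 adipocyte sum, of which Fabp4 was the largest part, and the 10 genes lay between −0.53 for Gjb2 and 0.30 for Fkbp5. Immune markers summed to 30.3 to 35.6 CPM in Control and 27.5 to 37.3 CPM in 20CBD over 7 genes, and red cell markers to 627 to 1470.0 CPM and 711 to 1693 CPM over 5 genes. The labelled tissue was checked by 8 proximal tubule markers, which summed to 8155 to 9818 CPM in Control and 7356 to 9022 CPM in 10CBD, but to 6763 to 7640.1 CPM in 20CBD, below all Control mice. Against Control, edgeR called 1 of these 8 markers lower in 20CBD, the glucose transporter gene Slc5a2, beside 0.303% of all genes tested. DESeq2 called 2 lower, and 182 genes of all tested. Slc34a1 and Lrp2 made up most of the sum, with means of 3553 and 2227 CPM in Control and 3037 and 1319 CPM in 20CBD. Slc7a13 went the other way, with means of 875 and 1101 CPM. Of the 8 estimates, 7 lay below 0 and 1 above. The sums of 3 distal tubule markers were 529 to 872 CPM in Control and 466 to 571 CPM in 20CBD. Thick limb markers summed to 1055 to 1759 CPM in Control and 1208 to 1640 CPM in 20CBD over 3 genes, and collecting duct markers to 269 to 430 CPM and 263 to 434 CPM over 6 genes. Podocyte markers summed to 344 to 400 CPM in Control and 365 to 463 CPM in 20CBD over 3 genes, and endothelial markers to 311 to 348 CPM and 302 to 363 CPM over 4 genes. The part of the adipocyte and proximal tubule differences in the levels of the glucocorticoid group was not tested.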

How the data were processed

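Kidney RNA of 12 mice was sequenced in pairs of reads after poly(A) selection. Reads were trimmed by the authors (Flexbar), aligned with STAR (2.7.5c) against GRCm39 and counted per gene with HTSeq (1.99.2), and the deposited values are raw counts per Ensembl gene. The share of counts on no gene was 12.1% to 19.9% and was left out. Identifiers of 56620 of 57180 genes matched GENCODE vM39 names, carrying 99.95% of the counts. How molecular identifiers were handled is not given in the sources used here. Counts were filtered with filterByExpr, scaled by TMM and tested with edgeR (4.0.16, R 4.3.3) quasi-likelihood tests in 1 model of 3 group means over 12 libraries, with p-values adjusted by Benjamini-Hochberg over 17163 genes and a threshold of 0.1. All adjusted p-values in the text are edgeR values unless another tool is named. Intervals at 95% follow from the standard error. Single genes had two-sided exact permutation tests of mean log2 CPM (prior count of 2). DESeq2 (1.42.0), limma-voom (3.58.1), other scalings and filters, covariates, a replicate block and leaving out each library were alternatives. The fit was tested on simulated data.

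The 10 genes and the lists were chosen with earlier results of these data known. All 10 genes are named throughout. From each other pathway list the called genes are named, otherwise the 3 with the smallest p at 20CBD, with Dbp as clock output gene. Per1, which 3 lists hold, Slc5a2, the marker called, G6pc1 and Fabp4 are named besides, chosen after their values were seen. So are the markers Star, Akr1b7, Slc34a1, Lrp2 and Slc7a13. The mice of a group are separate animals.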

Additional observations from a re-analysis of the deposited data

Results flagged for a closer look

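Among the 10 glucocorticoid genes no mouse stood apart from its group of 4 by Dixon's test. Among the other named genes, 5 groups had a mouse far from the rest. In all 102 groups were examined, and chance alone marks about 1 group in 20, so a count of 5 is no more than chance gives. Hif3a was lowest of 10CBD in mouse 1, at 1.10 CPM. Cxcl1 was lowest of 20CBD in mouse 2, at 0.479 CPM. Junb was highest of 10CBD in mouse 1, at 9.02 CPM. Bmal1 was highest of Control in mouse 1, at 28.0 CPM. Nr1d1 was lowest of 20CBD in mouse 3, at 40.1 CPM.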

How the results depend on the processing

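The number of the 10 genes called at 20 mg/kg was 1, and it was 4 with DESeq2, 3 without the filter on low counts, 6 with the mitochondrial share as covariate, 3 with the share on no gene as covariate, 3 among libraries with a mitochondrial share of at least 10% and 0 at an adjusted p under 0.05. Leaving out 1 library gave 0 to 1. At 10 mg/kg and between the doses it was 1 without the filter instead of 0. Those fits called 331 and 256 of 40012 genes. For the mean of both doses the number of the 10 genes called was 3 with DESeq2, 4 without the filter, 4 with the mitochondrial covariate, 1 with the no-gene covariate and 1 among libraries of at least 10%, instead of 0. Over all genes, the same fits called 136, 393, 276, 29 and 67, in that order, instead of 24. The log2 fold change of Ddit4 at 20 mg/kg stayed between 0.94 and 1.26 in every fit. Over all genes, the 52 calls at 20 mg/kg became 182 with DESeq2, 416 without the filter, 1386 with the mitochondrial covariate, 106 with the no-gene covariate, 107 among libraries of at least 10% and 23 at the stricter threshold, and 14 to 54 when 1 library was left out. The cause was not tested.

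Groups share replicate numbers in the labels. Libraries of the same number correlated, group means removed, between −0.33 and 0.32, over 0.1 in 4 of 12 pairs. These values cannot show whether a number stands for a shared batch or order, which the labels do not give. With the replicate block 0 of the 10 genes were called at 20 mg/kg (Ddit4 adjusted p = 0.182), and 27 genes of all tested.

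Some small values changed sign. With the mitochondrial covariate Klf9 at 10 mg/kg was 0.016 and the difference between doses was −0.062 for Hsd11b1 and −0.018 for Errfi1. With the no-gene covariate these were 0.063 for Klf9 and −0.042 for Hsd11b1. Among libraries of at least 10%, Klf9 was 0.050 and Errfi1 −0.045 at 10 mg/kg. Leaving out 1 library, values at 10 mg/kg ran from −0.033 to 0.38 for Hsd11b1, −0.10 to 0.061 for Klf9, −0.10 to 0.17 for Dusp1, −0.11 to 0.16 for Errfi1 and −0.089 to 0.14 for Acer2.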
